A study of Mus musculus with 6 samples.

Results

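The miR-15/16 family is a set of microRNAs (miRNAs) that comprises miR-15a, miR-15b, miR-16, miR-195, miR-322 (called miR-424 in humans) and miR-497. Members were taken by name from a table of small RNA sequences, with both arms of each hairpin and all end variants, and rows alike in name and sequence were added up. This gave 15 features with 14 distinct sequences, out of 756 features and 724 sequences in all. The libraries were labelled Mes23.5, a hybrid of neuroblastoma and midbrain cells with dopaminergic traits, and every one carried the label of an LPS stimulus (LPS is a component of bacterial walls) lasting 24 h. In SIX2_EV, 3 libraries came from cells given extracellular vesicles from SIX2-overexpressing microglia (SIX2 is a transcription factor). In control_EV, 3 libraries came from cells given vesicles from control microglia. The growth protocol names BV2, a mouse microglial line, instead, so the source of the RNA is given here by its label alone. Separate cultures are not stated for the libraries of a group, and the spread that each p-value rests on may thus be technical.

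A miRNA guides Argonaute proteins to messenger RNAs by pairing through its seed, bases 2 to 8, and so lowers their translation and stability. The miR-15/16 family shares a seed and is best known for restraining the cell cycle and survival through targets such as cyclin D1 and Bcl2. In humans the miR-15a and miR-16-1 locus is often lost in chronic lymphocytic leukaemia. miR-16 is also abundant in red blood cells and is found in most tissues.

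The 5p arm, the strand that is mostly loaded into Argonaute, carries the family seed. The sequences below are those deposited for the 5p arms, in DNA letters, 5′ to 3′, with the seed in capitals. They are shown because the members share these bases and differ behind them.
miR-16-5p: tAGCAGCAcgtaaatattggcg
miR-15a-5p: tAGCAGCAcataatggtttgt
miR-15b-5p: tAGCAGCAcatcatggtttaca
miR-195-5p: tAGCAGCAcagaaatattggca
miR-322-5p: cAGCAGCAattcatgttttgga
miR-497-5p: cAGCAGCAcactgtggtttgt
miR-424-5p, guinea pig name: cAGCAGCAattcatgttttga

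All 8 sequences of 5p arms held the bases AGCAGCA at positions 2 to 8, counting a variant of miR-424-5p under a cattle name. No other sequence among the 724 did. Over their whole length, miR-16-5p and miR-195-5p were identical at 19 of 22 positions, and miR-15a-5p and miR-15b-5p at 18 of 21. From base 9 on, miR-16-5p matched miR-195-5p at 11 of 14 positions, and miR-15a-5p matched miR-15b-5p and miR-497-5p alike, at 10 of 13. miR-16-5p and miR-497-5p were the least alike of the 6 mouse 5p arms over the whole length, with 11 of 21 identical positions.

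Most members carried names of other species, with 10 of 15 named for the rat. Of 12 features matched by name to a RefSeq mature mouse sequence (GRCm38.p6), 7 were identical to it. Another 3 were shorter and 2 were longer at the 3′ end, and none differed within. A suffix in the deposited name can therefore mark a difference from the rat and not from the mouse. For miR-15a-3p the name gives an added base and a substitution, whereas the sequence equals the RefSeq mouse one.

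The remaining 3 features stood under the name miR-424. The guinea pig-named miR-424-5p was placed in the mouse Mir322 hairpin, and its first 20 of 21 bases occur there. The cattle-named miR-424-5p also matched the Mir322 hairpin over its first 20 bases but not over its last 3, and it had no mouse position. The cattle-named miR-424-3p matched over only its first 6 of 21 bases, and it had 5 reads in a single library, the third of control_EV. Whether the 5p reads under these names were end variants of miR-322-5p or RNA of another species was not tested.

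The 12 matched features came from 7 hairpins on 4 chromosomes. In GRCm38, Mir16-1 lies on chromosome 14 at 61631880 to 61631972 on the minus strand and overlaps an exon of Dleu2, a long non-coding RNA gene. The arms of Mir15a lie beside it at 61632038 to 61632096, in a Dleu2 intron. Mir15b (chromosome 3, 69009772 to 69009835) and Mir16-2 (69009902 to 69009996) lie on the plus strand in an intron of Smc4, which encodes a condensin subunit. Mir497 (chromosome 11, 70234717 to 70234800, plus strand) and Mir195a (70235042 to 70235135) are neighbours, and Mir322 lies on chromosome X at 53054255 to 53054349 on the minus strand. GENCODE M21 has no gene other than miRNA entries at these last 3.

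Deposited reads per library numbered 179621 to 232635 in SIX2_EV and 253037 to 421279 in control_EV. The share of these reads under mature miRNA names with a mouse hairpin was lower in SIX2_EV, with 13.9%, 6.78% and 32.6% in SIX2_EV and 31.5%, 56.7% and 70.8% in control_EV. Its part in the differences below was not tested, and in bulk RNA fewer cells of a type and less RNA per cell cannot be told apart. The family had 333, 263 and 695 reads in the SIX2_EV libraries and 1384, 2680 and 4318 reads in the control_EV libraries. Few values in the table lie under 5 reads (31 of 2410 values above 0), so a member at 0 is called listed at 0. The levels below are library-scaled counts (CPM), scaled with TMM, a method that sets most features to be equal between libraries. In SIX2_EV, 5 reads were worth 22.6 to 69.5 CPM, and in control_EV 4.44 to 18.1 CPM. The values count reads of molecules of 21 to 23 bases, and no correction was made for how well each sequence is captured.

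Of the markers of the labelled cell type, no feature was matched to the neuronal miR-124-3p, and miR-9-5p was at 0 in 5 of 6 libraries. Neuronal markers summed to 2039 to 2684 CPM in SIX2_EV, against 1853 to 3134 CPM in control_EV, most of it miR-7a-5p. Within that list miR-128-3p did not overlap, with 75.5 to 125 CPM in SIX2_EV, against 181 to 276 CPM in control_EV. Leukocyte and microglial markers, led by miR-142-5p, summed to 3154 to 5148 CPM in SIX2_EV, against 5094 to 5737 CPM in control_EV. Of these, miR-142-5p itself did not overlap, with 2529 to 3727 CPM in SIX2_EV, against 3758 to 4103 CPM in control_EV. The groups overlapped for miR-142-3p, miR-223-3p and miR-150-5p. Red blood cell markers, led by miR-451, summed to 13781 to 21080 CPM in SIX2_EV, against 8616 to 30446 CPM in control_EV. Within that list miR-144-3p did not overlap, with 1286 to 1510 CPM in SIX2_EV, against 1811 to 2131 CPM in control_EV. Its log2 fold change was -0.48 (adjusted p 0.439 by edgeR), while miR-451 (-0.35) and miR-486-5p (0.007) overlapped. For comparison, 16.9% of all features tested and 23.3% of mature miRNA features tested were lower in SIX2_EV without overlap. The part of these markers in the levels of the family was not tested.

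Summed over its members, the family had its 3 lowest levels in the SIX2_EV libraries. It had 3143, 3654 and 3136 CPM in SIX2_EV, against 5021, 6656 and 3832 CPM in control_EV. The third control_EV library was close to the second SIX2_EV library. The means were 3311 ± 297 CPM in SIX2_EV, against 5170 ± 1418 CPM in control_EV (SD, n = 3 each), a log2 ratio of -0.64. The exact two-sided permutation p was 0.1, the smallest that 3 against 3 libraries allow (0.133 after Benjamini-Hochberg adjustment over 4 single-value tests). With DESeq2 size factors, or with values at 0 set to 4 reads, the groups overlapped (exact permutation p 0.2 in each), and with total counts the log2 ratio was -1.96. Most reads in the sum were miR-16-5p, whose own groups overlapped. Among single features tested, 16.9% of all and 23.3% of mature ones were likewise lower in SIX2_EV without overlap.

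As a share of mature miRNA reads, which leaves fragments of other RNAs out, the groups overlapped. The 12 matched features took 1.30% (Wilson 95% interval 1.17 to 1.45), 1.62% (1.43 to 1.82) and 1.14% (1.06 to 1.23) of mature reads in SIX2_EV. They took 1.66% (1.57 to 1.75), 1.79% (1.73 to 1.86) and 1.42% (1.38 to 1.46) in control_EV. Only counting error is in these intervals, and amplified reads with no molecular identifier are not independent molecules. The means were 1.35% ± 0.241 in SIX2_EV and 1.62% ± 0.19 in control_EV (SD, n = 3 each), and the exact permutation p was 0.2 (0.2 adjusted over the same 4 tests). Over all deposited reads, including other RNAs, the same features took 0.181%, 0.110% and 0.373% in SIX2_EV and 0.521%, 1.02% and 1.005% in control_EV.

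miR-16-5p held most of the family's reads. All of them had a single sequence, the annotated one, so the share with annotated ends was 100% in each of the 6 libraries. Because Mir16-1 and Mir16-2 both give this sequence, the authors listed it under 2 names and gave each an equal number of reads. Together these had 310, 233 and 594 reads in SIX2_EV and 1130, 2118 and 3240 reads in control_EV. Scaled, this was 2926, 3237 and 2680 CPM in SIX2_EV, against 4099.8, 5260.0 and 2875 CPM in control_EV. The third control_EV library lay within the range of SIX2_EV, so the groups overlapped. The means were 2948 ± 279 CPM in SIX2_EV, against 4078 ± 1193 CPM in control_EV (SD, n = 3 each). The fit gave each of the 2 names -0.47 (SE 0.29) as its log2 fold change, with 0.578 as the adjusted p (edgeR, quasi-likelihood). It was -0.26 without SIX2_EV replicate 3 and -0.28 without control_EV replicate 2. Among 371 mature miRNA names, miR-16-5p ranked 15, 11 and 19 by reads in SIX2_EV and 13, 12 and 24 in control_EV. Its share of mature reads was 1.24%, 1.48% and 0.988% in SIX2_EV and 1.39%, 1.48% and 1.09% in control_EV.

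miR-15a-5p and miR-15b-5p, the next most abundant members, were lower in every SIX2_EV library than in any control_EV library. miR-15a-5p, made beside miR-16-1, had 7, 10 and 46 reads in SIX2_EV and 75, 150 and 276 reads in control_EV. This was 66.1, 139 and 207.5 CPM in SIX2_EV, against 272, 372.5 and 245 CPM in control_EV. The means were 138 ± 70.7 CPM in SIX2_EV, against 296.5 ± 67.2 CPM in control_EV (SD, n = 3 each). miR-15b-5p, made beside miR-16-2, had 8, 0 and 26 reads in SIX2_EV and 65, 140 and 417 reads in control_EV. This was 75.5, 0 and 117 CPM in SIX2_EV, against 236, 348 and 370.1 CPM in control_EV. The second SIX2_EV library, with the fewest mature reads, was the one listed at 0. The means were 64.3 ± 59.5 CPM in SIX2_EV, against 318 ± 71.9 CPM in control_EV (SD, n = 3 each).

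Neither passed the test. In edgeR the log2 fold change of miR-15a-5p was -1.10 (SE 0.62; adjusted p 0.574). That of miR-15b-5p was -2.25 (SE 1.13; adjusted p 0.519, edgeR). By DESeq2 their adjusted p were 0.307 and 0.136. The groups did not overlap for these 2 members in their share of mature reads either, a measure free of the scaling. miR-15b-5p took 0.0321%, 0% and 0.0432% of mature reads in SIX2_EV and 0.0801%, 0.0975% and 0.14% in control_EV. miR-15a-5p took 0.0281%, 0.0634% and 0.0765% in SIX2_EV and 0.0924%, 0.105% and 0.0925% in control_EV.

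**Figure D1:**
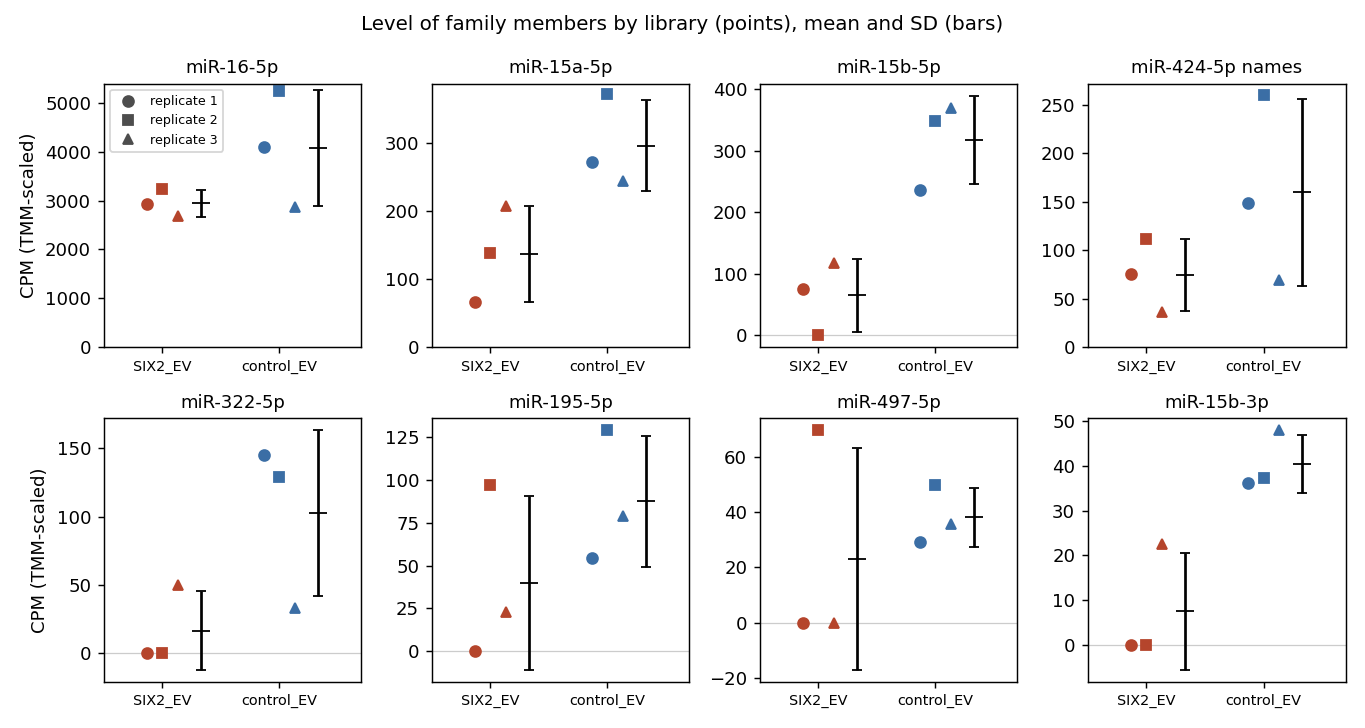
CPM of 8 members in each library (points, with a shape for each replicate number) for SIX2_EV on the left and control_EV on the right of each panel, with the mean and SD beside them; the miR-424-5p panel sums both names. Points of the 2 groups are apart for miR-15a-5p, miR-15b-5p and miR-15b-3p, and overlap for the other 5, such as miR-16-5p with 2680 to 3237 CPM in SIX2_EV, against 2875 to 5260.0 CPM in control_EV.

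The other tested members overlapped between groups. The guinea pig-named miR-424-5p had 8, 0 and 8 reads in SIX2_EV and 41, 97 and 78 reads in control_EV. Its level was 37.2 ± 37.8 CPM in SIX2_EV, against 153 ± 85.9 CPM in control_EV (SD, n = 3 each), with a log2 fold change of -1.99 (SE 1.22, adjusted p 0.578 by edgeR). miR-322-5p, which in mice promotes cell cycle exit in muscle cells, had 0, 0 and 11 reads in SIX2_EV and 40, 52 and 37 reads in control_EV. Its level was 16.5 ± 28.7 CPM in SIX2_EV, against 102 ± 60.7 CPM in control_EV (SD, n = 3 each), with a log2 fold change of -2.39 (SE 1.5, adjusted p 0.578 by edgeR). The overlap came from the third libraries, at 49.6 CPM in SIX2_EV, against 32.8 CPM in control_EV. miR-195-5p, which in mouse heart restrains the cell cycle after birth, had 0, 7 and 5 reads in SIX2_EV and 15, 52 and 89 reads in control_EV. Its level was 39.9 ± 50.9 CPM in SIX2_EV, against 87.5 ± 38.1 CPM in control_EV (SD, n = 3 each), with a log2 fold change of -1.20 (SE 1.33, adjusted p 0.766 by edgeR). This value was -0.57 without SIX2_EV replicate 1 and -2.76 without SIX2_EV replicate 2.

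Of the 15 features, 7 passed the filter on low counts, and these 7 hold 6 sequences. The filter asks for enough reads in 3 libraries. miR-15b-5p, miR-195-5p, miR-322-5p and the guinea pig-named miR-424-5p were above 0 in at most 2 SIX2_EV libraries. They passed only with reads of control_EV, so a log2 fold change below 0 was partly set in advance for them. The counts below 0 and the members' median are therefore a description. By edgeR's quasi-likelihood test, 0 of the 7 passed an adjusted p of 0.05, against 0 of 319 features in all (0.0%). At an unadjusted p under 0.05 there were 0 of the 7 by edgeR, 1 by DESeq2 and 1 by limma-voom, against 39, 54 and 62 of the 319; the share lower in SIX2_EV at that p was 6.58%, 7.52% and 11.3%. DESeq2 called 20 features over all (6.27%) and limma-voom 0 (0.0%), in each case with 0 members. All 7 log2 fold changes were below 0 in edgeR, DESeq2 and limma-voom, as were 64.6%, 57.4% and 66.5% of all features tested. In edgeR this held for 79.5% of the 210 mature miRNA features tested. The members' median in edgeR was -1.20, beside -0.30 over all features and -0.43 over the mature miRNA features. The groups did not overlap, with SIX2_EV lower, for 2 of the 7, against 16.9% of all features and 23.3% of mature miRNA features. In the share of mature reads this held for 2 of 6 tested members with a mouse hairpin, against 11.9% of such features. With total counts the median was -2.89 for the members and -1.52 over all features, so the size of every fold change moves with the scaling.

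The low-abundance members were mostly listed at 0 in SIX2_EV. miR-497-5p, made from the same cluster as miR-195, had 0, 5 and 0 reads in SIX2_EV and 8, 20 and 40 reads in control_EV. The cattle-named miR-424-5p had 0, 8 and 0 reads in SIX2_EV and 0, 8 and 0 reads in control_EV. Of the 3p arms, which are mostly degraded after the hairpin is cut, the most abundant was miR-15b-3p. It had 0, 0 and 5 reads in SIX2_EV and 10, 15 and 54 reads in control_EV. The other 5 features of 3p arms were at 0 in all SIX2_EV libraries.

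The 3p arms of miR-16 tell its hairpins apart, since the 5p arm is the same for both. They are shown with bases 2 to 8 in capitals.
miR-16-1-3p, from chromosome 14: cCAGTATTgactgtgctgctgaa
miR-16-2-3p, from chromosome 3: aCCAATATtattgtgctgcttt
The arm from Mir16-1 had 0, 6 and 23 reads in control_EV, and the arm from Mir16-2 had 0, 5 and 14 reads in control_EV. Both hairpins therefore gave reads in 2 of 3 control_EV libraries. miR-15a-3p had 0, 0 and 13 reads and miR-322-3p had 0, 17 and 32 reads in control_EV.

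The depth of SIX2_EV limits what these zeros show. A member was also expressed as the reads it would have in a SIX2_EV library at its mean control_EV share of mature reads. For miR-16-3p this was 1.67, 1.06 and 4.02 reads, and for miR-322-3p 1.88, 1.19 and 4.52 reads, all under the 5 reads from which sequences were listed. For miR-15a-3p and miR-424-3p it was under 1 read in each library. No fold was drawn for these members, and a difference was not detectable at this depth. miR-15b-5p had 26.4, 16.7 and 63.6 such reads against 8, 0 and 26 listed, and miR-15a-5p 24.1, 15.2 and 58.0 against 7, 10 and 46. For miR-16-5p the numbers were 329, 208 and 793 against 310, 233 and 594 listed.

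**Figure D2:**
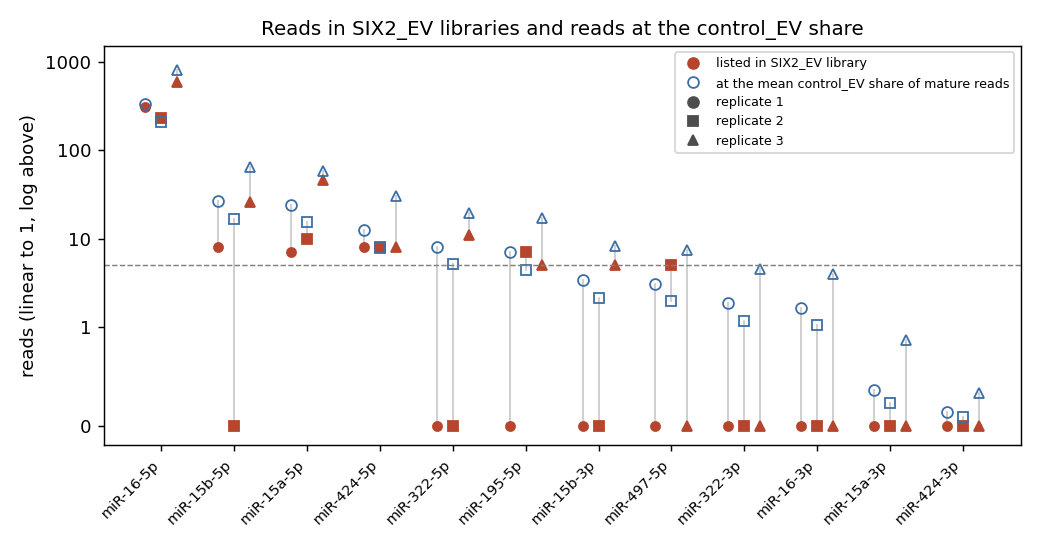
Reads listed in each SIX2_EV library (filled) and reads at the mean control_EV share of mature reads (open), for 12 member names, on an axis that is linear to 1 and logarithmic above; the dashed line marks 5 reads. Both values of miR-16-5p lie close together, those listed for miR-15b-5p lie below the open ones in all 3 libraries, and the rarest 3p arms lie under the line in both.

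The make-up of the family differed between groups as listed. miR-16-5p took 93.1% (Wilson 95% interval 89.8 to 95.4), 88.6% (84.2 to 91.9) and 85.5% (82.7 to 87.9) of family reads in SIX2_EV. Its share in control_EV was 81.6% (79.5 to 83.6), 79.0% (77.4 to 80.5) and 75.0% (73.7 to 76.3). The groups did not overlap, with means of 89.1% ± 3.83 in SIX2_EV and 78.6% ± 3.33 in control_EV (SD, n = 3 each) and an exact permutation p of 0.1 (0.133 adjusted over 4 tests). miR-15b-5p took 2.40%, 0% and 3.74% of family reads in SIX2_EV and 4.70%, 5.22% and 9.66% in control_EV. The libraries with more family reads had the lower miR-16-5p share in the order of their reads, except that the first and second SIX2_EV libraries stood the other way round.

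The size of this difference depended on how members at 0 were treated. With each value at 0 set to 4 reads, the miR-16-5p share was 83.1%, 77.9% and 82.2% in SIX2_EV and 80.3%, 78.8% and 75.0% in control_EV, and the groups overlapped (exact permutation p 0.3). Over the 2 sequences listed in every library, miR-16-5p and miR-15a-5p, the share was 97.8%, 95.9% and 92.8% in SIX2_EV and 93.8%, 93.4% and 92.2% in control_EV, and the groups overlapped again (p 0.3). Both alternatives were chosen after the data were seen. The share of 3p arms was 0%, 0% and 0.719% in SIX2_EV and 0.723%, 1.60% and 3.27% in control_EV (exact permutation p 0.1, 0.133 adjusted over 4 tests). Without miR-16 it was 0%, 0% and 4.95% in SIX2_EV and 3.94%, 5.81% and 9.99% in control_EV, and the groups overlapped (exact permutation p 0.2). With values at 0 set to 4 it was 6.43%, 8.03% and 3.46% in SIX2_EV and 2.13%, 1.90% and 3.26% in control_EV, with the direction turned round.

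**Figure D3:**
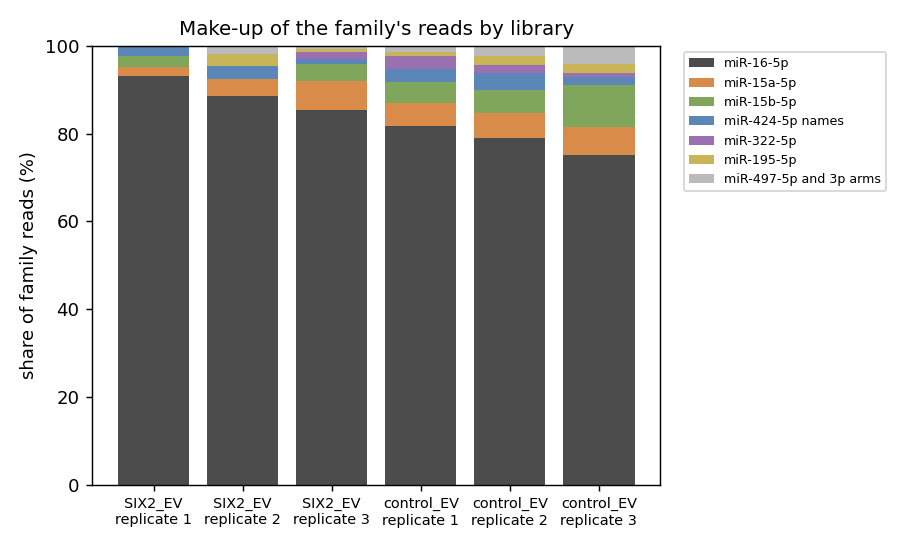
Share of family reads taken by each member name (miR-497-5p and the 3p arms together), stacked to 100%, in the 3 SIX2_EV libraries and the 3 control_EV libraries. miR-16-5p takes 85.5% to 93.1% in SIX2_EV and 75.0% to 81.6% in control_EV.

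**Figure D4:**
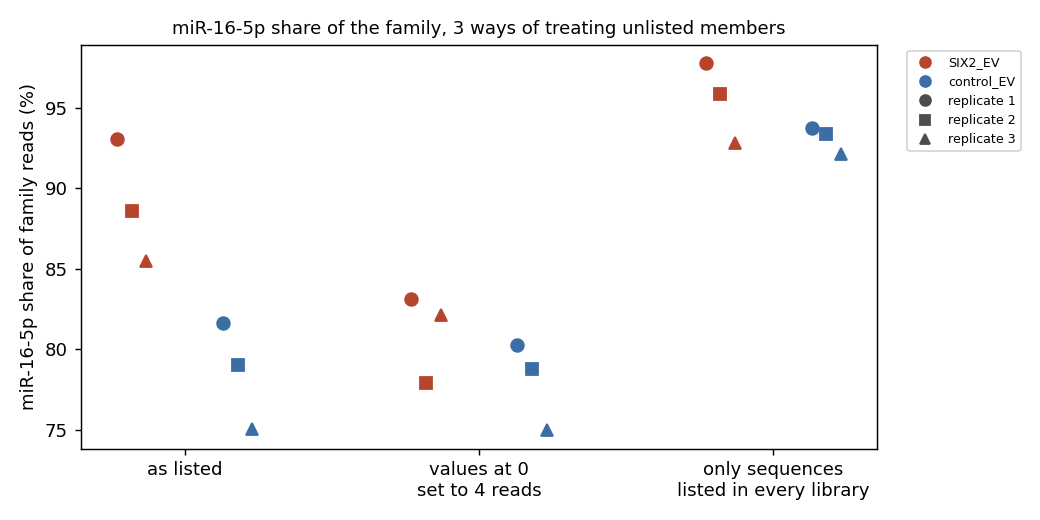
miR-16-5p share of family reads in each library as listed, with values at 0 set to 4 reads, and over the 2 sequences listed in every library. The groups are apart as listed (85.5% to 93.1% in SIX2_EV, 75.0% to 81.6% in control_EV) and overlap in the other settings; the axis does not start at 0.

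Within each group the order of levels was led by miR-16-5p by a wide margin. In control_EV, miR-15b-5p (318 CPM) and miR-15a-5p (296.5 CPM) followed and differed by less than their SDs. Next came the guinea pig-named miR-424-5p (153 CPM), miR-322-5p (102 CPM) and miR-195-5p (87.5 CPM), and neighbours in this order differed by less than their SDs too. In SIX2_EV, miR-15a-5p (138 CPM) stood above miR-15b-5p (64.3 CPM), a gap about the size of their SDs.

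Relatives of the family were also measured. miR-103-3p and miR-107-3p hold the family's core bases shifted by a position. miR-103-3p had 2352 ± 193 CPM in SIX2_EV, against 2688 ± 492 CPM in control_EV (SD, n = 3 each), with a log2 fold change of -0.19 (SE 0.23, adjusted p 0.784 by edgeR). miR-107-3p had 151 ± 35.9 CPM in SIX2_EV, against 305 ± 38.2 CPM in control_EV (SD, n = 3 each), with a log2 fold change of -0.997 (SE 0.501, adjusted p 0.519 by edgeR). Like miR-15a-5p and miR-15b-5p, miR-107-3p did not overlap, with 116, 148 and 188 CPM in SIX2_EV, against 324, 261 and 330 CPM in control_EV. For miR-103-3p the groups overlapped. The miRNAs that share the X-linked cluster of miR-322 (miR-503, miR-351, miR-542 and miR-450) were listed for 6 of 9 arms. Of these 4 were tested, 0 passed and 4 of 4 were below 0 with a median log2 fold change of -1.37, beside 64.6% of all features tested and 79.5% of the mature ones. These 4 were above 0 in at most 2 SIX2_EV libraries and passed the filter only with reads of control_EV, so their signs have the same limit. The tested features of miR-450a-5p and miR-450b-5p had the same fit (-1.62, SE 1.16), so they are a single profile counted under 2 names. miR-351-3p, which was not tested, had 56.6, 0 and 212 CPM in SIX2_EV, against 21.8, 22.4 and 94.96 CPM in control_EV. The summed cluster overlapped between groups, with 56.6, 153 and 474 CPM in SIX2_EV, against 337, 346 and 464 CPM in control_EV. By arm, miR-503-5p, miR-542-3p, miR-450a-5p and miR-450b-5p were lower in SIX2_EV without overlap, while miR-351-5p and miR-351-3p overlapped. Among features tested, 16.9% of all and 23.3% of mature ones were lower in SIX2_EV without overlap. miR-503-5p, a cluster member with a related seed, had 0, 0 and 5 reads in SIX2_EV and 8, 12 and 60 reads in control_EV.

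The mature features whose level over the 6 libraries ran most like that of miR-16-5p were miR-23a-3p, miR-144-5p and miR-93-5p. The measure was the root mean square difference of centred log2(CPM + 1) values, at 0.16, 0.17 and 0.18 among 77 candidates with a mean of at least 500 CPM. Features of a library share its depth and scaling, so this is a description. miR-23a-3p, the nearest, had 2218, 2320.2 and 1525 CPM in SIX2_EV, against 2747, 2975 and 1948 CPM in control_EV, with the third library lowest in each group as for miR-16-5p.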

How the data were processed

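Small RNA was sequenced from 6 libraries, 3 per group. Per the labels' protocols, a Trizol extract went into TruSeq small RNA libraries, and ACGT101-miR took out adapter dimers, simple or poor reads, repeats and known RNAs such as rRNA. Which build, miRBase release and mapping settings the authors used is not stated in the labels or headers. The deposited estimated counts are reads split over loci, so they need not be whole (89.8% of values above 0 were within 0.05 of a whole number), and were rounded. The authors' normalized signal equals the counts times 1 factor per library and was used only as an alternative. Rows were summed where name and sequence matched. The whole table was fitted with edgeR 4.0.16 in R 4.3.3 (quasi-likelihood test, TMM, filterByExpr with a minimum count of 10, Benjamini-Hochberg at 0.05), and 319 of 756 features were tested. The fit was also run on simulated counts, which lacked the shift in mature share seen here. That run therefore does not show how the fit behaves under such a shift. DESeq2 1.42.0 and limma 3.58.1 were alternatives. For single values the test was an exact two-sided permutation over libraries. Sequences came from the deposited table and RefSeq (GRCm38.p6), and overlapping genes from GENCODE M21. Every member is accounted for, and values are given in each library for members with a mean of at least 100 CPM. The members and lists were chosen with earlier results of these data known. The replicate numbers were not taken to pair the libraries.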

Additional observations from a re-analysis of the deposited data

How the results depend on the processing

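No member was called under any alternative tried. The 7 members tested with TMM were below 0 wherever they were tested, with the limit from the filter given above. With mature miRNA features only, with sums by mature name and with sums by sequence, 6 were tested. DESeq2 called 20 features over all. The members' median log2 fold change was -1.20, and it was -2.89 with total counts, -1.88 with limma-voom, -2.26 with no filter, which took in all 15 features and put 14 below 0 (the cattle-named miR-424-5p was above), and -1.60 with sums by sequence, an alternative chosen after the data were seen. Leaving out each library in turn it lay between -1.71 (10 members tested, without control_EV replicate 1) and -0.94 (7 members tested, without control_EV replicate 2). With the replicate block it was -1.94 and 0 features were called. Same-numbered libraries had correlations of deviations of 0.21, 0.07 and 0.67, and not every library correlated best with its own number. Leaving out each library in turn, the log2 ratio of the summed family lay between -0.82 and -0.42, the difference in its share of mature reads between -0.4 and -0.163 percentage points, that in the miR-16-5p share between 8.46 and 12.3, and that in the 3p share between -2.20 and -0.924 (the smallest without control_EV replicate 3). The 3p share reversed to a difference of 3.54 percentage points with values at 0 set to 4, which by construction adds more to shallow libraries. miR-322-5p, at 0 in the first 2 SIX2_EV libraries, had a fitted log2 fold change of -8.32 when SIX2_EV replicate 3 was left out, a value that depends on the prior count. miR-195-5p lay between -2.76 and -0.57, each name of miR-16-5p between -0.51 and -0.26, and the guinea pig-named miR-424-5p between -2.90 and -1.33 when each library was left out. Depth limits every member but miR-16-5p: 5 reads are 22.6 to 69.5 CPM in SIX2_EV.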
